A study of Mus musculus with 6 samples.

Results

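Border macrophages are the resident macrophages of the meninges and of the spaces around brain vessels, and 10 genes often used to recognise them were followed here: Mrc1, Lyve1, Cd163, Pf4, F13a1, Cbr2, Stab1, Folr2, Ms4a7 and Clec4n. The members were chosen by symbol, and each matched a single row among the 31053 genes of the count matrices. Their levels were compared among border macrophages, microglia, monocytes and dendritic cells, and between macrophages of the brain surface and of the dura.

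Border macrophages sit between blood, cerebrospinal fluid and brain tissue, where they take up proteins, lipids and debris and can present antigen. Several of the 10 genes encode the machinery of this clearance. Microglia, the macrophages inside the brain tissue, have another set of identity genes that depends on the transcription factor Sall1, and in both the meninges and the choroid plexus macrophages are commonly split into cells with little and cells with much MHC class II, the molecule that presents antigen to helper T cells.

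The cells came from adult C57BL6 mice, as the labels give the genotype, and no group carried a treatment or an added allele. Live cells, sorted as DRAQ5-positive and propidium iodide-negative, were profiled with the 10x Genomics 3′ assay, which counts unique molecular identifiers (UMIs), in 4 cortical surface libraries (the leptomeninges and what adheres to the brain surface) and 2 bone-associated libraries (the dura inside the skull). Tissue of several mice was pooled in a library, so the library is the replicate and differences between mice within a pool are hidden. The study's methods and the sample labels name different enzymes for the dissociation.

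Of the 8680 cells kept, 1119 were border macrophages: 212, 253, 229 and 310 in cortical surface libraries 1 to 4, and 16 and 99 in bone-associated libraries 1 and 2. The comparison classes held 687 microglia, all from the cortical surface, 331 monocytes and 376 dendritic cells. The bone-associated libraries also held 14 choroid plexus cells, 13 of them in library 1. Macrophages of the bone-associated libraries are called dural after the preparation, and where each cell sat was not tested. Total UMIs per deposited library ranged from 8408685 to 56169736, and library pairs shared 0 to 9 barcodes. The classes were rebuilt by clustering without the 10 members. Sall1, also left out of the clustering, stood at 267 to 431 CPM (UMIs per 1000000 UMIs of the class in a library) in microglia and at 0 to 3.86 CPM in border macrophages. All 14 border macrophage markers had UMIs in the border macrophages of both preparations, and 13 of them had UMIs in microglia. They summed to 4173 to 7249 CPM in surface and 5173 to 6553 CPM in dural border macrophages. At the surface the sums were 1315 to 1483 CPM in microglia, 261 to 408 CPM in monocytes and 268 to 625 CPM in dendritic cells. The macrophages of cortical surface libraries 1 and 2 stood apart from those of libraries 3 and 4: 12 genes of the dissociation stress response summed to 28564 and 27320 CPM against 6006 and 8997 CPM, and lay between these at 16045 and 20703 CPM in the dural macrophages. Their share of cells rich in MHC class II differed as well, as given with the states of the macrophages. The median UMIs per macrophage were 12892 and 11672 in libraries 1 and 2, and 5143 and 5598 in libraries 3 and 4. Hemoglobin genes made up 0.000764% and 0.000275% of the macrophage UMIs in libraries 1 and 2, and 4.93% and 1.98% in libraries 3 and 4. The part of dissociation in the results was not tested.

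In the mouse genome (GRCm38) the members lie on 8 chromosomes, and only Lyve1 (chr7:110850607-110863239) and Folr2 (chr7:101839988-101857194), and Cd163 (chr6:124304656-124330527) and Clec4n (chr6:123229843-123247021), share one. Mrc1 lies at chr2:14229392-14332057, Pf4 at chr5:90772435-90773383, Cbr2 at chr11:120729489-120732114, F13a1 at chr13:36867178-37050244, Stab1 at chr14:31139013-31168641 and Ms4a7 at chr19:11321039-11336146. All 10 are annotated as protein coding. RefSeq promoter entries were found for 8 members, 11 entries in all, and the 250 bases before the start were searched on both strands for GAGGAA, a core letter run of ETS factors such as PU.1, and for TGCTGA, a core of MAF factors, since both families are known to act in macrophages. GAGGAA was in 5 of the 11 entries (45.5%) and in 23.3% of 32851 promoters of the same length. TGCTGA was in 3 of the 11 (27.3%) and in 16.1% of all promoters, and only a Stab1 entry held both. Counted by member, GAGGAA was found for 5 of the 8 and TGCTGA for 2, Stab1 and Folr2, which has 2 entries with it. F13a1 has another entry, at chr13:37049214-37049463, that held neither. The entries printed below each hold GAGGAA, while no entry of Cd163, Folr2 or Ms4a7 does. The sequences of 3 members that are shown differed most in how they were shared with other classes: Pf4 was low in microglia, monocytes and dendritic cells, F13a1 was shared with monocytes, and Stab1 with microglia. They end at the base before the annotated start, are written 5′ to 3′ on the strand of the gene from the RefSeq table of GRCm38.p6, and capitals mark the motif letters; a match is a description of the letters alone.
Pf4, chr5:90772185-90772434, plus strand: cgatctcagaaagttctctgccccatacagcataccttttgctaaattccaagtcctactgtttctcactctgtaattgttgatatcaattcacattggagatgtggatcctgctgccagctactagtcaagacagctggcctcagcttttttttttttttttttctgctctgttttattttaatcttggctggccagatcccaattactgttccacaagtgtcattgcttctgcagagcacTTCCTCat
F13a1, chr13:37050245-37050494, minus strand: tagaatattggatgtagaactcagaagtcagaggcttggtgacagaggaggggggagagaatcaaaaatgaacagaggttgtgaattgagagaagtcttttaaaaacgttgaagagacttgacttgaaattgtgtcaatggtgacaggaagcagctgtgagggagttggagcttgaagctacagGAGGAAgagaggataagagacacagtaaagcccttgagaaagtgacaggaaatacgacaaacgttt
Stab1, chr14:31168642-31168891, minus strand: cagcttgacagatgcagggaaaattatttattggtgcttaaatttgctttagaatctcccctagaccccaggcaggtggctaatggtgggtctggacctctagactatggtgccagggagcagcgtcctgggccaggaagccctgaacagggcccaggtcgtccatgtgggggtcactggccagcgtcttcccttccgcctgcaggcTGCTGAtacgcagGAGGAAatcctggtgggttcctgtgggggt

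Each of the 10 members had its highest mean level in border macrophages in both preparations. Levels are CPM of the UMIs summed over the cells of a class in a library. They are compared for 1 gene across classes and not between genes. The chemokine gene Pf4 stood at 4245, 4331, 2793 and 2595 CPM in the border macrophages of the cortical surface libraries and at 2083 and 3402 CPM in those of the bone-associated libraries. In the other 3 classes Pf4 did not exceed 49.4 CPM in any library with at least 10 cells of the class, so the groups did not overlap. At the cortical surface Pf4 was higher in some classes outside this comparison, at 311 CPM in the neuron-like cells of a single library, at 112 and 294 CPM in erythroid cells and at up to 199 CPM in mesenchymal cells, all below the lowest border macrophage level of 2595 CPM. Pf4 is also made by platelets, and 36 of the 973 border macrophages with a Pf4 UMI (3.70%) had a UMI of a platelet gene. The 5 platelet genes summed to 5.15 to 46.7 CPM in the surface macrophages and to 59.1 to 70.8 CPM in microglia, where Pf4 was at 2.11 to 8.19 CPM. In UMIs this was 17, 15, 37 and 84 in the macrophages and 19, 65, 59 and 151 in the microglia of libraries 1 to 4. Gp9 alone gave 288 UMIs in microglia and 20 in these macrophages, so the sums differ in make-up. In surface macrophages with little MHC class II the 5 genes summed to 5.87 to 112 CPM. The part of platelet RNA in Pf4 was not tested.

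**Figure D1:**
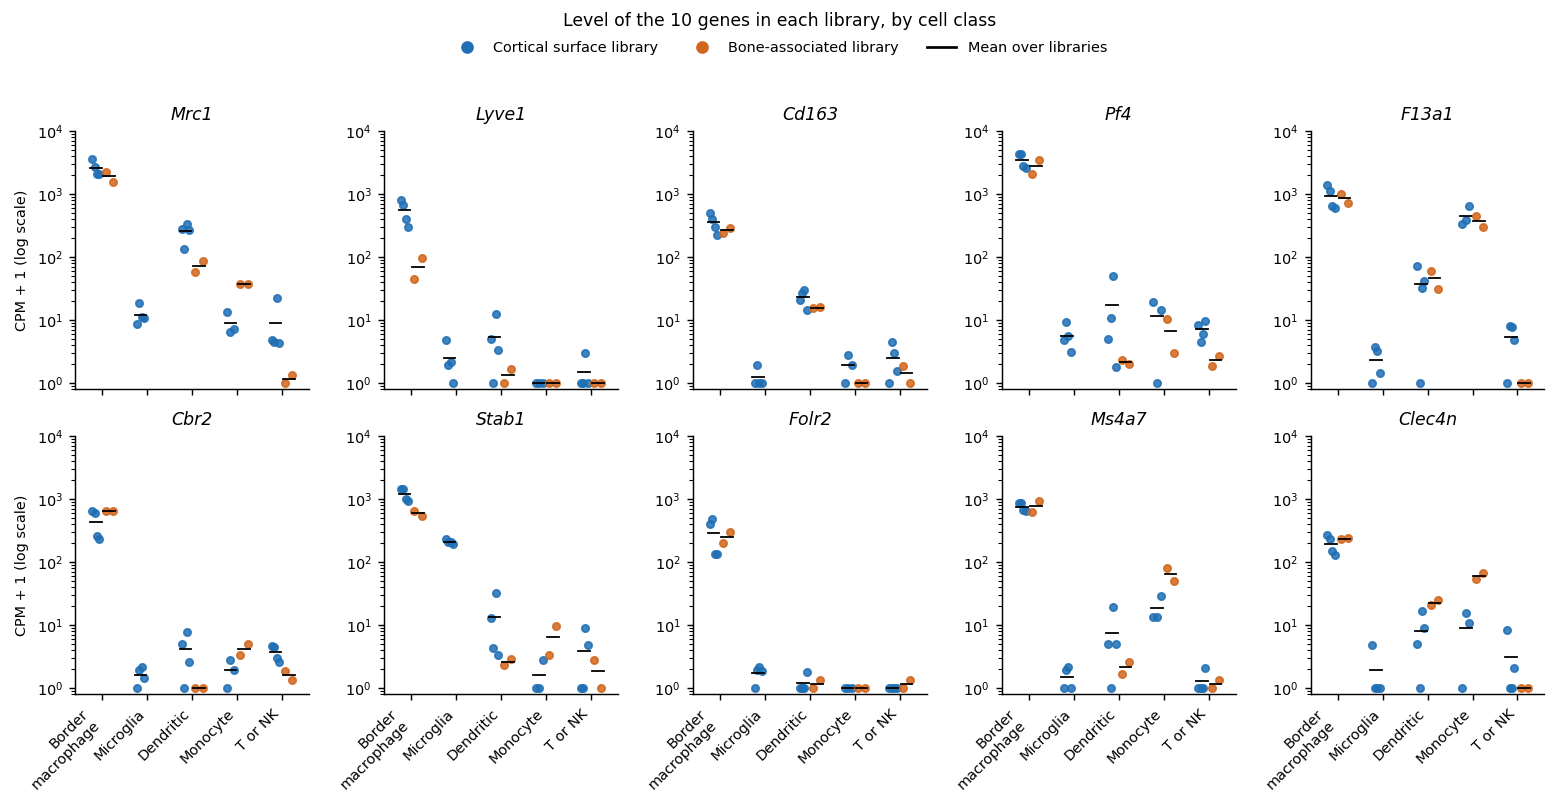
Levels of the 10 genes in CPM plus 1 (vertical axis, log scale) in border macrophages, microglia, dendritic cells, monocytes and T or NK cells (horizontal axis). Each point is a library with at least 10 cells of the class, blue for cortical surface and orange for bone-associated, and the bar is the mean; border macrophages are highest for each gene, and of the classes plotted the nearest is microglia for Stab1 (195 to 227 CPM), monocytes for F13a1 (300.2 to 634 CPM) and dendritic cells for Mrc1 (57.1 to 333 CPM).

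The comparison with microglia asked how far the members separate the macrophages at the brain surface from those of the brain tissue. All 10 were higher in border macrophages in the 4 cortical surface libraries by edgeR's quasi-likelihood test (Benjamini-Hochberg adjusted p under 0.05 and a log2 fold change of at least 1.3), where 8.26% of the 7345 genes tested were called higher and 7.12% lower in border macrophages. The groups did not overlap for any of the 10, nor for 37.1% of all genes tested. Of the 10, only Stab1 had a UMI in over 10% of microglia. The others entered the test through border macrophages alone, so its filter favoured the direction called. The classes were named from other genes of the same cells, so this and the following class comparisons describe how far the members follow that naming. Mrc1, the mannose receptor, stood at 3611, 2632, 2095 and 2081 CPM in border macrophages and at 7.45, 17.3, 10.1 and 9.72 CPM in microglia, a log2 difference of 8.02 ± 0.24 (SE, adjusted p = 4.77e-11). Pf4 differed by 9.88 ± 0.28 (adjusted p = 4.77e-11), F13a1, the catalytic chain of coagulation factor XIII, by 9.47 ± 0.29 (adjusted p = 4.98e-11) and Folr2, a folate receptor, by 8.24 ± 0.27 (adjusted p = 8.11e-11). The other 6 members include 5 with 1 to 3 UMIs in all microglia, for which the ratio of counts is given with its 95% interval, which covers counting error only. That ratio was 920 for Lyve1 (315 to 4463; 3 microglial UMIs), the hyaluronan receptor, and 1752 for Cd163 (314 to 69235; 1 UMI), the hemoglobin-haptoglobin receptor. It was 744 for the carbonyl reductase Cbr2 (254 to 3609; 3 UMIs), 1808 for the membrane protein Ms4a7 (500.2 to 14929; 2 UMIs) and 959 for the lectin receptor Clec4n (172 to 37882; 1 UMI). The upper ends are wide because the microglial counts are this small.

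Stab1, the scavenger receptor stabilin-1, was the member that microglia shared most. It stood at 227, 207, 206 and 195 CPM in microglia (209 ± 13.4, SD, n = 4) and at 1458, 1451, 996 and 927 CPM in border macrophages of the same libraries (1208 ± 286, n = 4). The log2 difference was 2.82 ± 0.15 (adjusted p = 4.39e-09), below those of Mrc1, Pf4, F13a1 and Folr2, and the groups did not overlap. A Stab1 UMI was found in 66.7% of the 687 microglia (exact 95% interval 63.0 to 70.2, median 6447 UMIs per cell) and in 1.29% of the 541 surface T or NK cells (median 5931 UMIs), which serve as the background of free RNA. With every cell thinned to 1500 UMIs, and cells with fewer left out, the shares were 24.8% and 0.37%. The 5 lymphatic endothelial genes, given because lymphatic vessels are also known for Lyve1, summed to at most 7.26 CPM in the surface macrophages and 4.38 CPM in the dural ones. Endothelial cells, a known site of Stab1, had a UMI in 27.4% at the cortical surface and 50.4% in the bone-associated libraries (9.28% and 15.7% thinned).

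The comparison with monocytes set the members against a class that can give rise to macrophages, in the 5 libraries with at least 10 cells of both classes. In it 9 of the 10 members were called higher in border macrophages, where 11.6% of 7471 genes tested were, and 7.52% were called lower. The groups did not overlap for 22.2% of all genes tested. Mrc1, F13a1, Ms4a7 and Clec4n had a UMI in over 10% of monocytes, and the other members entered through border macrophages alone. No Lyve1 and no Folr2 UMI was found in the monocytes of these libraries, so Lyve1 was at least 522-fold and Folr2 at least 371-fold higher in border macrophages, set against a floor of 3 counts over the group. Cd163 had 2 monocyte UMIs and a ratio of 592 (164 to 4887). The log2 differences were 8.85 ± 0.50 for Pf4 (adjusted p = 3.27e-07), 7.73 ± 0.48 for Stab1, 7.64 ± 0.27 for Cbr2, 6.92 ± 0.47 for Mrc1 and 4.52 ± 0.36 for Ms4a7 (adjusted p = 2.65e-06). Clec4n, which recognises fungal mannans, was the closest of the called members at 2.89 ± 0.37 (adjusted p = 9.72e-05). The monocyte class joined clusters of 99 and 70 cells at the surface and of 114 and 48 cells in the bone-associated libraries. The smaller cluster of each was led by Cd300e, Adgre4 and Treml4. The larger was led by Pclaf and Prtn3 at the surface and by Chil3 and Lyz2 in the bone-associated libraries. The larger surface cluster also had Top2a, Hist1h1b and Hist1h2ab among its 10 leading genes. The study states that mice were not perfused, so peripheral immune cells could come from blood or from tissue. The part of this mix of clusters in the monocyte levels, also between preparations, was not tested.

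F13a1 was the member that monocytes shared. It stood at 334, 387 and 634 CPM in the monocytes of cortical surface libraries 2 to 4, and at 443 and 300.2 CPM in those of the bone-associated libraries. The border macrophages of the same libraries had 1119, 631 and 607 CPM, and 994 and 723 CPM. In cortical surface library 4 the monocytes were thus slightly above the macrophages, so the groups overlapped in CPM. With the TMM scaling of the fit, on which the 22.2% of all genes was counted, the groups did not overlap for F13a1. The log2 difference over the 5 libraries was 1.06 ± 0.24 (adjusted p = 0.00438), which is under the fold limit of 1.3, so F13a1 was not called. It passed with cells thinned to 1500 UMIs (1.39) and with MHC class II-low macrophages alone (1.68). In the MHC class II-high macrophages of the surface the order turned. Their sub-clusters had F13a1 at 47.3, 62.2 and 286 CPM, below each surface monocyte level. The dural MHC class II-high sub-clusters, at 237, 519 and 876 CPM, lay on both sides of the dural monocyte levels. A F13a1 UMI was found in 45.6% of surface and 54.3% of bone-associated monocytes (30.1% and 25.6% at 1500 UMIs), in 1.11% of surface T or NK cells, and in 0 of 606 bone-associated T or NK cells, which allows a share of up to 0.495%. In the bone-associated libraries Clec4n and Ms4a7 were also seen in monocytes, Clec4n at 52.1 and 65.0 CPM against 232 and 236 CPM in border macrophages, and Ms4a7 at 78.1 and 48.9 CPM against 626 and 937 CPM. A Clec4n UMI was found in 32.1% of these monocytes (9.38% thinned; median 12410 UMIs per cell) and in 0 of the 606 T or NK cells (median 6121.5 UMIs).

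The comparison with dendritic cells, the antigen-presenting cells of the same tissues, used all 6 libraries. All 10 members were called higher in border macrophages, where 9.03% of 8097 genes tested were and 6.64% were lower. Mrc1, Cd163 and Clec4n had a UMI in over 10% of dendritic cells, and the other members entered through border macrophages alone. Mrc1 differed by 3.70 ± 0.36 (adjusted p = 1.94e-05), Clec4n by 3.81 ± 0.34 (adjusted p = 1.2e-05) and Cd163 by 3.93 ± 0.21 (adjusted p = 5.32e-07) on the log2 scale, the smallest of the 10 differences. The others were 4.43 ± 0.41 for F13a1, 6.70 ± 0.40 for Lyve1, 7.27 ± 0.50 for Stab1, 7.68 ± 0.54 for Ms4a7, 8.74 ± 0.67 for Cbr2 and 9.16 ± 0.76 for Pf4, and Folr2, with 2 dendritic cell UMIs, had a ratio of 1118 (309 to 9233). Dendritic cells thus held detectable Mrc1, at 276, 134, 333 and 268 CPM in the cortical surface libraries and 57.1 and 84.6 CPM in the bone-associated libraries. A Mrc1 UMI was found in 63.7% of surface dendritic cells (28.8% thinned; median 13669 UMIs per cell) and in 33.3% of bone-associated dendritic cells (7.69% thinned; median 18130 UMIs), against 1.66% and 0.165% of T or NK cells. The bone-associated dendritic cells also held neutrophil markers at 14582 and 5127 CPM (at most 28.9 CPM in the surface libraries), and those of library 2 B cell markers at 2799 CPM, and the part of these in the levels was not tested. In the surface libraries alone all 10 members were called, where 9.07% of 7781 genes tested were, with Mrc1 at 3.17. Cd163 was at 20.0, 26.1, 29.2 and 13.3 CPM in surface and 14.3 and 14.8 CPM in bone-associated dendritic cells. No dendritic level of either gene reached the lowest border macrophage level, which was 1538 CPM for Mrc1 and 219 CPM for Cd163.

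**Figure D2:**
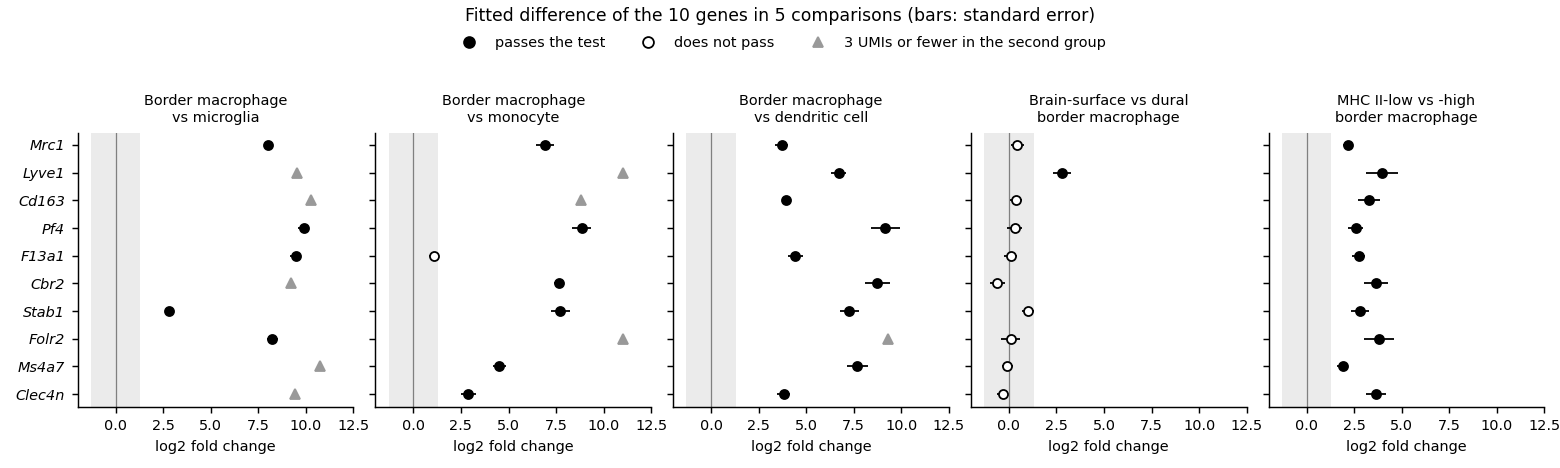
Fitted log2 fold change (horizontal axis) of the 10 genes in 5 comparisons, with bars of 1 standard error. Filled points passed the test, open points did not, grey triangles are fitted values with 3 UMIs or fewer in the second group and are no bound, and the grey band marks changes under 1.3; F13a1 against monocytes (1.06) is the open point among the class comparisons, and between brain-surface and dural macrophages Lyve1 (2.80) is the filled one.

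The border macrophages were split into 2 states, and at the brain surface all 10 members fell together from the first to the second. Sub-clusters made without the members were called MHC class II-high where at least 1% of their UMIs came from H2-Aa, H2-Ab1, H2-Eb1 and Cd74, a limit set after the sub-clusters were seen. The surface sub-clusters lay far from it, at 0.00777 to 0.0799% in the low and 5.79 to 7.46% in the high state. The 4 dural sub-clusters were graded, at 0.529, 1.69, 2.99 and 6.53% over 30, 38, 23 and 24 cells, so the dural states were less distinct. From the sub-cluster at 0.529% to that at 1.69%, Lyve1 rose from 89.7 to 195 CPM and Folr2 from 345 to 444 CPM. Cbr2 rose from 779 to 849 CPM and Stab1 from 625 to 874 CPM, while Mrc1, Cd163, Pf4, F13a1, Ms4a7 and Clec4n fell. The high state made up 13.2%, 17.4%, 42.4% and 46.5% of the macrophages in cortical surface libraries 1 to 4 and 68.8% and 74.7% in the bone-associated libraries. Over the pooled cells it was 31.2% (exact 95% interval 28.3 to 34.1) against 73.9% (64.9 to 81.7).

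The state also differed in genes that mark other myeloid cells. The main surface cluster of the high state (311 cells) was led by H2-Eb1, H2-Aa, H2-Ab1 and Cxcl14 and had Ccr2, a monocyte marker, among its 10 leading genes. It was named a state of border macrophages from the list of C1q and MHC class II markers, of which 7 of 8 led it, while 2 of the 14 border macrophage markers did. These 14 markers summed to 1173 to 1480 CPM in the surface high state, near the 1315 to 1483 CPM of microglia. In the surface low state the sum was 8083 to 8608 CPM, and in the dural high state 3882 to 4985 CPM. Ccr2 stood at 828 to 1055 CPM in the high state of the surface libraries, at 120 to 232 CPM in that of the dural libraries and at 0 to 2.18 CPM in the low state of the surface libraries. In the monocytes of surface libraries 2 to 4 Ccr2 was at 575, 673 and 702 CPM, below the surface high state. The 11 monocyte markers together summed to 870 to 1202 CPM in the surface high state, 194 to 451 CPM in the dural high state and 48.4 to 74.5 CPM in the surface low state, with Hp and Treml4 at 0 in each of these, against 6492 to 8434 CPM in the monocytes of surface libraries 2 to 4. The 12 dendritic cell markers summed to 154 to 248 CPM in the surface high state, with Ccr7 at 0, and to 2146 to 3073 CPM in surface dendritic cells. The part of these genes in the difference between the states was not tested. Whether the surface high state belongs with the border macrophages was not tested either, and the fall of the members between the states depends on that naming.

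All 10 members were higher in the MHC class II-low state in the 5 libraries with at least 10 cells of both states, where 5.3% of 7269 genes tested were and 5.43% were lower. The states were told apart by other genes of the same cells. Lyve1, with a UMI in 4.39% of the high cells, was the member that entered through the low state alone. The low cells of cortical surface libraries 3 and 4 were shallow, with medians of 3097.5 and 3409.5 UMIs, and hemoglobin genes made up 7.02% and 4.58% of their UMIs. In libraries 1 and 2 the medians of the low cells were 13078.5 and 11830 UMIs. Lyve1 stood at 929, 809, 867 and 727 CPM in the low state of cortical surface libraries 1 to 4 and at 3.07, 61.0, 30.5 and 2.80 CPM in the high state. In bone-associated library 2 the values were 97.4 and 93.8 CPM, so the difference in Lyve1 was seen in the 4 surface libraries and the dural library had nearly the same level in both states. Over the 5 libraries the log2 difference of Lyve1 was 3.98 ± 0.84 (adjusted p = 0.00471), and it was 4.90 ± 0.33 in the surface libraries alone. Folr2 showed a similar order, at 450.0, 583, 284 and 329.5 CPM against 12.3, 1.91, 13.8 and 2.80 CPM at the surface, and 365 against 269.7 CPM in the dural library. Its log2 difference was 3.82 ± 0.79 (adjusted p = 0.00416) over the 5 libraries.

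Mrc1 and Pf4 fell less and remained well above the levels of microglia in the high state. Mrc1 stood at 4052, 3101, 3983 and 4359.7 CPM in the surface low state and at 501, 496, 593 and 539 CPM in the surface high state. Its log2 difference over 5 libraries was 2.19 ± 0.27 (adjusted p = 0.000135). Pf4 fell from 4785, 5176, 5709 and 5533 CPM to 443, 486, 475 and 606 CPM at the surface, and its log2 difference was 2.57 ± 0.40. The smallest difference was that of Ms4a7, 1.89 ± 0.28 (adjusted p = 0.000566), with 949 to 1278 CPM against 157 to 202 CPM at the surface. The remaining 5 members differed by 2.73 (F13a1) to 3.65 (Cbr2). Within the 4 surface libraries all 10 were called, where 7.31% of 7172 genes tested were, from 2.29 for Ms4a7 to 5.47 for Folr2. When libraries were clustered separately Mrc1 (1.95), F13a1 (2.45) and Clec4n (3.06) were called, where 2.72% of 6367 genes tested were. The other 7 members differed by 1.64 (Ms4a7) to 3.74 (Lyve1), with adjusted p from 0.0573 to 0.104, and the standard errors were larger, at 1.21 for Lyve1 against 0.84. Without library as a term in the fit Cbr2 (2.03, adjusted p = 0.148) and Folr2 (2.38, adjusted p = 0.112) lost their call. Against microglia, the surface high state alone kept 5 of the 6 members that passed the detection filter there, where 9.2% of 7131 genes tested were called higher. Stab1, which was not called, was at 117, 169.7, 168 and 128 CPM, below microglia in each library. Its fitted difference of 0.04 (adjusted p = 0.841) had the other sign, since TMM scaling adds 0.52 to the log2 difference of CPM in this fit.

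**Figure D3:**
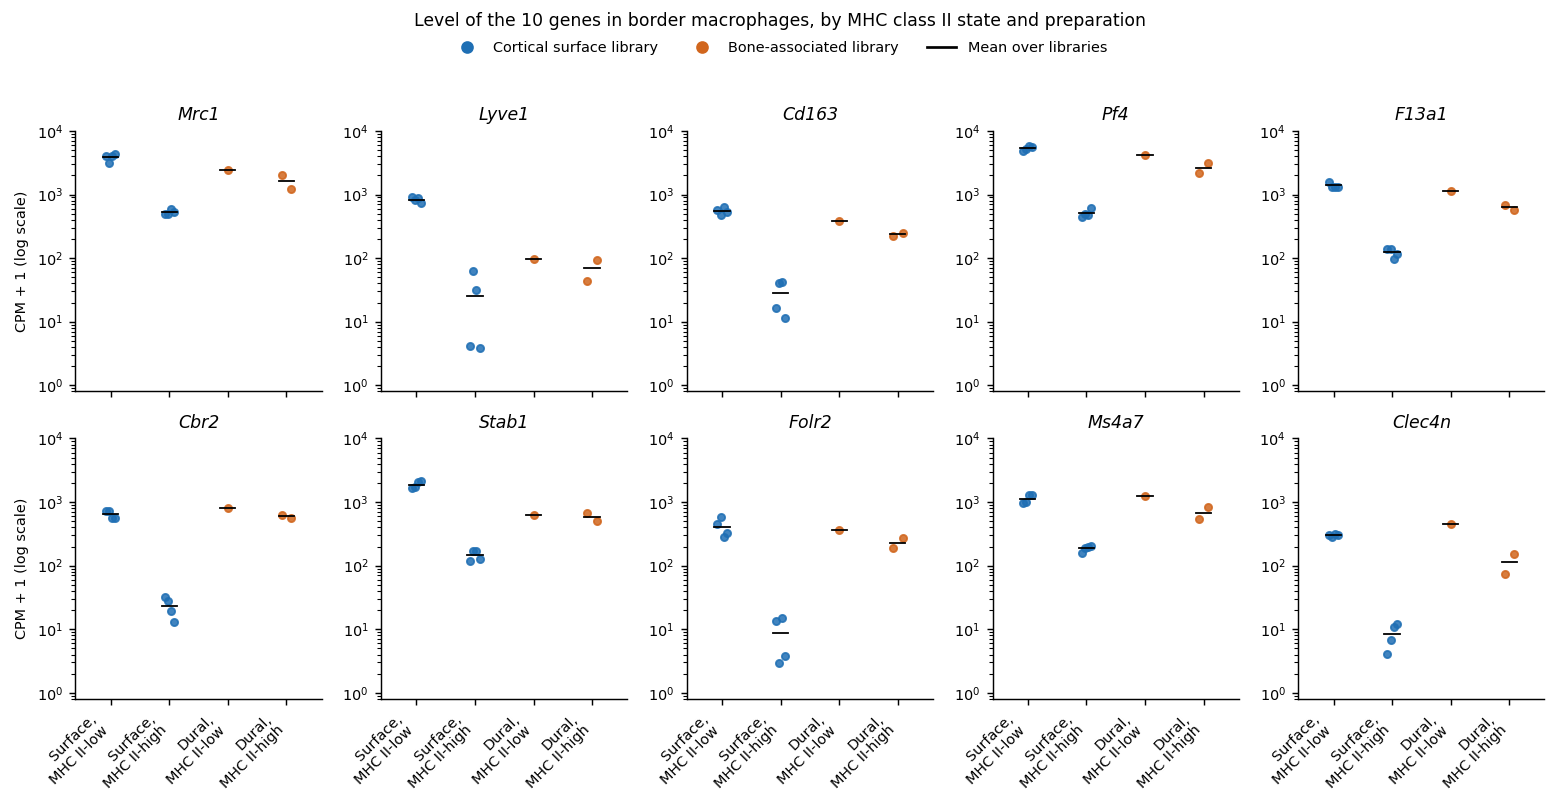
Levels of the 10 genes in CPM plus 1 (vertical axis, log scale) in the MHC class II-low and MHC class II-high border macrophages of the brain surface and of the dura (horizontal axis). Points are libraries with at least 10 cells of the state, blue for cortical surface and orange for bone-associated, and bars are means; at the surface the low state lies above the high state for every gene, while for Lyve1 the dural low library (97.4 CPM) lies beside the dural high libraries (42.7 and 93.8 CPM).

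**Figure D4:**
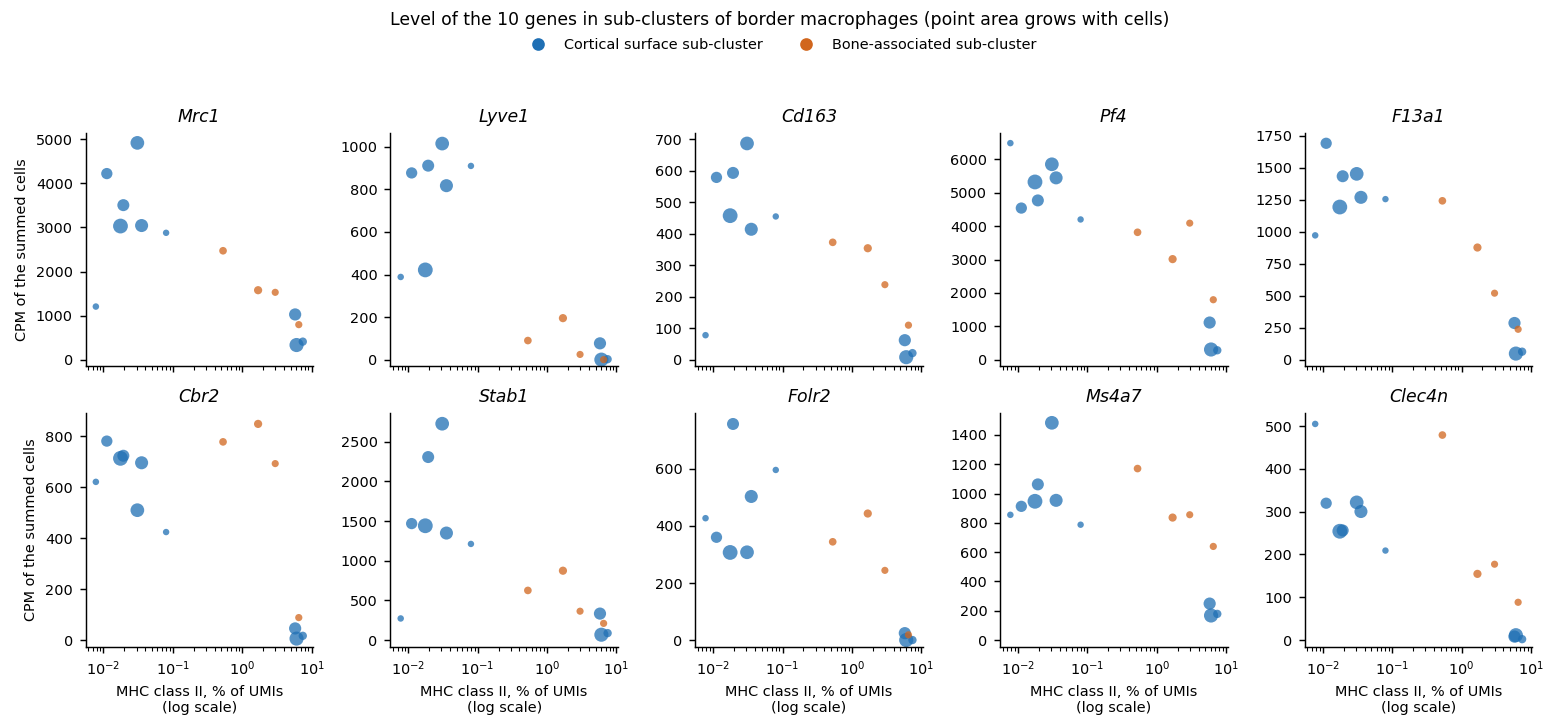
Level of the 10 genes in CPM of the summed cells (vertical axis) against the percentage of UMIs from 4 MHC class II genes (horizontal axis, log scale) in the 14 sub-clusters of border macrophages. Blue points are cortical surface, orange points bone-associated, and the area of a point grows with its cells; the surface sub-clusters form a low and a high set, and the 4 dural sub-clusters run from 0.529 to 6.53%.

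Between brain-surface and dural border macrophages Lyve1 was the member whose level passed the test. It was called higher at the brain surface, 1 of 10 members, where 0.593% of 7593 genes tested were called higher there, 3.25% higher in the dura and 3.85% in all. It stood at 814, 674, 401 and 295 CPM in the 4 surface libraries and at 43.8 and 94.8 CPM in the dural libraries (546 ± 239.6, n = 4, against 69.3 ± 36.1, n = 2, SD), with no overlap, as for 33.5% of all genes tested. The log2 difference was 2.80 ± 0.48 (adjusted p = 0.0113). A Lyve1 UMI was found in 53.4% of surface macrophages (39.4% thinned to 1500 UMIs; median 7809 UMIs per cell) and in 21.7% of dural macrophages (6.19% thinned; median 12780 UMIs). The call rests on both dural libraries, of 16 and 99 macrophages: without bone-associated library 1 the difference was 2.40 (adjusted p = 0.105), and without library 2 it was 3.76 (adjusted p = 0.0598).

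Stab1 was at 1458, 1451, 996 and 927 CPM at the surface and at 652 and 535 CPM in the dura. The groups did not overlap, but the log2 difference of 1.00 ± 0.30 (adjusted p = 0.0997) did not pass the test. Mrc1 differed by 0.44 ± 0.33, Cd163 by 0.37 ± 0.30, Pf4 by 0.30 ± 0.38, Folr2 by 0.11 ± 0.50 and F13a1 by 0.10 ± 0.35, with adjusted p from 0.531 to 0.952. Cbr2 was at 645, 589, 261 and 232 CPM at the surface and at 635 and 632 CPM in the dura, a log2 difference of -0.61 ± 0.38 (adjusted p = 0.437), and those of Clec4n and Ms4a7 were -0.33 ± 0.27 and -0.10 ± 0.29. The study's methods list Clec4n, with Ccr2, among markers of dural macrophages, and Lyve1 and Mrc1 among those of border macrophages. The difference of Clec4n did not pass edgeR's test here (adjusted p = 0.574). With 4 against 2 libraries a missed threshold does not show that these levels were equal.

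The pooled comparison mixes the states in different shares, so the values within each state are given beside it. Among MHC class II-low cells (4 surface libraries against the 25 cells of bone-associated library 2), Lyve1 at 727 to 929 CPM was above the dural 97.4 CPM, a log2 difference of 3.10, and Stab1 at 1648 to 2107 CPM was above the dural 626 CPM, a difference of 1.59. With 1 dural library these are descriptions that hold no spread between dural libraries. The dural low cells also had more MHC class II, 3384 CPM against 219 to 333 CPM at the surface, so the low groups were not matched for it. Among MHC class II-high cells 9 of 10 members were called higher in the dura, where 6.49% of 7381 genes tested were. For Cbr2, Clec4n and Ms4a7 the pooled difference had the same sign, and for the other 7 members the sign turned. Cbr2 was at 616 and 569 CPM in the dural and 30.7, 26.7, 18.0 and 12.1 CPM in the surface high state, a difference of -4.74 ± 0.28, and Folr2 was at 189 and 269.7 CPM against 12.3, 1.91, 13.8 and 2.80 CPM. Lyve1, at 42.7 and 93.8 CPM against 2.80 to 61.0 CPM, was not called (-1.64, adjusted p = 0.133). The dural high cells had less MHC class II, 45129 and 33466 CPM against 58014 to 67845 CPM at the surface, so these groups were not matched for it.

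The dural sub-cluster with an MHC class II share like that of the surface high sub-clusters (6.53%, 24 cells) gives the closest match, with no test. Its Ms4a7 was at 639 CPM against 167 to 249 CPM in the 3 surface sub-clusters, its Pf4 at 1795 CPM against 279.7 to 1111 CPM, its Clec4n at 88.2 CPM against 2.07 to 11.3 CPM and its Cbr2 at 88.2 CPM against 5.65 to 45.7 CPM. Its Cd163 was at 109.5 CPM against 7.76 to 61.8 CPM. The other 5 members lay within the surface ranges: Mrc1 at 794 CPM (331 to 1025), F13a1 at 237 CPM (47.3 to 286), Stab1 at 209.9 CPM (67.0 to 333), Folr2 at 18.3 CPM (0 to 24.2) and Lyve1 at 0 CPM (0 to 76.6).

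The step from monocyte to border macrophage differed between the preparations for 2 members, where 1.98% of 7471 genes tested were called, 0.87% with a larger step at the surface. Mrc1 was at 12.4, 5.35 and 6.27 CPM in the monocytes of cortical surface libraries 2 to 4 and at 35.5 and 35.5 CPM in those of the bone-associated libraries. Its step was larger at the surface by 2.77 ± 0.43 on the log2 scale (adjusted p = 0.00273). In T or NK cells, the background of free RNA, Mrc1 was at 3.24 to 21.4 CPM at the surface. In those of the bone-associated libraries it was at most 0.337 CPM. The surface monocyte levels of Mrc1 thus lay within the background, and its part in the difference of the steps was not tested. For Clec4n the difference of the steps was 1.97 ± 0.46 (adjusted p = 0.0389), with monocyte levels of 0, 14.3 and 9.86 CPM at the surface. Neither difference passed when libraries were clustered separately, with cells thinned to 1500 UMIs or without cortical surface library 4 (48 genes called in all without it), and that of Clec4n also not without library 3. The difference for Stab1 was 3.49 ± 0.87 (adjusted p = 0.0522), which did not pass.

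Within single cells the members were found together. At 1500 UMIs per cell, a surface MHC class II-low macrophage had UMIs of a median of 7 of the 10 genes, and 91.9% of 617 such cells had at least 5. In the surface high state the median was 1, with 3.22% of 311 cells at 5 or more and 29.6% with none. The dural states were closer, with 79.3% of 29 low cells and 42.9% of 84 high cells at 5 or more. No microglial cell of 682 and no monocyte of 166 at the surface reached 5, and 0.641% of 156 surface dendritic cells did.

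**Figure D5:**
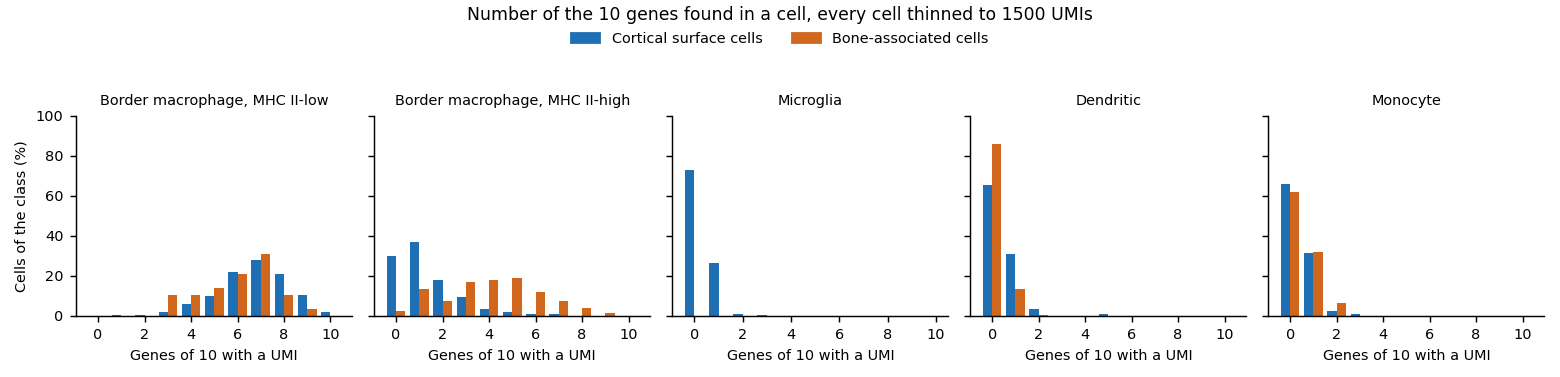
Percentage of cells (vertical axis) by the number of the 10 genes with at least 1 UMI after thinning to 1500 UMIs (horizontal axis), in border macrophages of either MHC class II state, microglia, dendritic cells and monocytes. Blue bars are cortical surface and orange bars bone-associated libraries; surface MHC class II-low macrophages centre on 7 genes and surface MHC class II-high macrophages on 1.

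Across the 65 profiles of a library and class with at least 10 cells, each member correlated with the mean of all 10, from r = 0.779 (Stab1) to r = 0.935 (Ms4a7). The profiles share libraries and depth, and the mean includes the member itself, so these are descriptions. The closest pairs were Mrc1 with Cd163 (r = 0.875), Pf4 with Ms4a7 (r = 0.868) and F13a1 with Ms4a7 (r = 0.867), and the loosest was F13a1 with Stab1 (r = 0.474). The 10 other genes most like the members were Cd209f (r = 0.927), Fcna, Cd209g, Pla2g2d, Ms4a14, Ccl24, Ccl8, Siglec1, 5033421B08Rik and Nxpe5 (r = 0.804). Of these, Cd209f, Fcna, Ccl24 and Ccl8 had served as markers of the class.

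Relatives of the members were called in both directions. Of 31 paralogs and close family members, 29 were in the matrices. Against microglia, 13 were tested, 9 were higher and 2 lower in border macrophages, with a median log2 difference of 1.71 beside -0.01 over all genes tested. Clec4a1, a lectin receptor of the Clec4n family, was higher by 5.66 ± 0.24, Clec4b1 and Ms4a4a had no microglial UMI, and the transglutaminase Tgm2 was lower (-5.26 ± 0.39). Against monocytes the order turned: 4 of 17 tested were higher and 7 lower (median -0.77, beside 0.03 over all genes), among them Clec4e (-6.10), Ms4a8a (-4.85), Tgm2 (-3.84) and the hyaluronan receptor Cd44 (-3.67). Against dendritic cells 5 of 13 were higher and 3 lower (median 1.21, beside 0.02). Between surface and dura, 0 of 15 were higher at the surface and 2 were higher in the dura, Tgm2 (-4.44) and Clec4d (-2.50). Between the states, the MHC class II-low state had 1 of 12 higher, Ms4a4a (2.10), and 3 lower, Clec4b1 (-5.67), Cd44 (-4.63) and Ms4a4c (-2.80), with a median of 0.16 beside 0.02.

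Other scavenger and clearance receptors followed the members in part. Of 18 tested against microglia, 8 were higher and 4 lower in border macrophages (median -0.10, beside -0.01 over all genes). The scavenger receptor Msr1 was higher by 7.19 ± 0.36, and the phosphatidylserine receptor Timd4 had 375 UMIs in border macrophages and 0 in microglia. Against monocytes 11 of 18 were higher and 2 lower (median 1.58), led among those with monocyte UMIs by Mertk (5.41 ± 0.37), which clears dying cells. Against dendritic cells 10 of 18 were higher and 1 lower (median 1.91), with Mertk at 6.12 ± 0.49 and Msr1 at 5.89 ± 0.37. Between surface and dura 0 of 19 were called in either direction by edgeR's test, with a median of -0.21 beside 0.05. Between the states 4 were higher and 3 lower of 18 in the MHC class II-low cells, Timd4 higher (2.85 ± 0.57) and Havcr2, Axl and Clec12a lower (-3.93, -3.49 and -2.54).

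Transcription factors of macrophages differed between the classes in part. Against microglia 4 of 17 were higher in border macrophages and 4 lower (median 0.01, beside -0.01 over all genes), with Sall1 lower (-7.58 ± 0.28) and Tfec higher (4.94 ± 0.43). Against monocytes 5 of 16 were higher and 0 lower (median 1.02), Maf by 4.77 ± 0.39 and Spic, a factor of iron-recycling macrophages, by 2.36 ± 0.40. Against dendritic cells 8 of 16 were higher and 1 lower (median 1.38), Maf by 7.58 ± 0.43. Between surface and dura 3 of 16 were called, all higher in the dura: Spic (-2.83), Id3 (-2.09) and Cebpb (-2.03), with a median of -0.57 beside 0.05. Between the states Tfec (2.42) and Maf (1.44) were higher in the MHC class II-low cells, as the members were, and Runx3 (-6.15) was lower. Of the 12 stress genes given beside these results, 4 were higher in border macrophages than in microglia, 10 than in monocytes and 9 than in dendritic cells, and 2 (Cxcl2 and Ccl4) were higher in dural than in surface macrophages.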

How the data were processed

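Cells of 4 cortical surface and 2 bone-associated libraries of adult mice were analysed. The authors deposited raw UMI counts per gene and barcode for each library, made with Cell Ranger, for which the submitters' processing notes give version 3 and mm10 and the file headers give 6.1.2. Barcodes were kept from 500 genes upward if mitochondrial UMIs made up no more than 10%, and likely doublets, scored by simulation, were removed at 0.8% per 1000 cells. Cells kept numbered 739, 1239, 1093 and 2201 in the surface libraries (median UMIs 9295, 9525, 5660 and 5453) and 956 and 2452 in the bone-associated libraries (8106 and 7702.5). Each preparation was clustered (2000 variable genes, 30 principal components, 15 neighbours, Leiden resolution 1.5) without the 10 members and Sall1, and clusters were named from marker lists. Border macrophages were clustered again (20 components, 10 neighbours, resolution 1.0), and sub-clusters with at least 1% of UMIs on 4 MHC class II genes were called MHC class II-high, a limit set after seeing the data.

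Counts were summed per library and class, and sums of at least 10 cells were used. Cortical surface library 1 held 9 monocytes and was left out of that comparison. CPM are UMIs per 1000000 of a class's summed UMIs in a library, and their precision is limited by depth. Against CPM, TMM scaling moved log2 differences by 0.32 (microglia), 0.12 (monocytes), -0.13 (dendritic cells), -0.01 (surface against dura) and -0.30 (states). A gene entered a test if more than 10% of cells in 1 of the groups had a UMI of it, and edgeR 4.0.16 (TMM, quasi-likelihood) in R 4.3.3 was used, with library as a term where a library held both classes, and calls needed a log2 fold change of 1.3 or more in size with an adjusted p (Benjamini-Hochberg) below 0.05 (adjusted p alone for the difference between preparations). All p-values measure the spread between libraries of pooled mice. Exact binomial intervals and limits for a count of 0 (3 counts) cover counting error only. The fit was tested on simulated data. Python 3.11.15 with numpy 2.4.6, scipy 1.17.1 and pandas 2.3.3, igraph 0.11.9 and leidenalg 0.10.2 were used, with DESeq2 1.42.0 as an alternative.

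The text names the 10 members, of each list at most the 4 called genes with the largest change, and the 10 genes most like the members; 1 result is not reported here. Members and lists were chosen with earlier results of these data known. The alternatives were DESeq2, no filter, other limits on genes and mitochondrial UMIs, thinning, clustering by library, library or number as a term, subsets of libraries or states, hemoglobin genes left out and each library left out. The fits by state, by preparation and without hemoglobin were chosen after seeing the data.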

Additional observations from a re-analysis of the deposited data

Results flagged for a closer look

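In 4 of the 50 groups of 4 libraries, 1 library lay far from the other 3 by Dixon's test, where chance gives about 1 in 20. Folr2 was at 0.781 CPM in the dendritic cells of cortical surface library 4 and at 0 in the other 3. Cd163 was at 0.910 CPM in the microglia of library 2 and Clec4n at 3.73 CPM in those of library 1, each at 0 elsewhere, so each rests on 1 UMI. Where the other 3 libraries are at 0 any value is flagged, so the rate of 1 in 20 does not hold for such groups. F13a1 in MHC class II-low macrophages was highest in library 1 at 1579 CPM, against 1304 to 1335 CPM in the others.

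The step from monocyte to border macrophage differed between the preparations by an interaction test for Mrc1 (2.77 on the log2 scale, larger at the surface, adjusted p = 0.00273) and for Clec4n (1.97, adjusted p = 0.0389). The Mrc1 levels of surface monocytes lay within the range of surface T or NK cells, the background of free RNA.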

How the results depend on the processing

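Counted here are fits in which a member value kept its side of the threshold, and its direction where either fit was called. A change of sign where neither fit was called was counted as kept. The counts were 189 of 189 against dendritic cells, 175 of 176 against microglia and 176 of 179 against monocytes. They were 186 of 200 between surface and dura, 141 of 150 between the states and 104 of 120 for the difference between preparations. Of 280 member levels under alternatives, 234 moved by less than 1 SD. Limits are set by the 16 and 99 dural macrophages, by 2 dural libraries, by pooled mice, and by the few UMIs of most members in microglia, monocytes or dendritic cells. Except where stated, the cause of a change was not tested.

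All genes called numbered 1130 against microglia, 1430 against monocytes, 1269 against dendritic cells, 292 between surface and dura, 780 between the states and 148 for the difference between preparations. Without the detection filter, which tests more genes, they were 2025, 2278, 1971 and 696 for the first 4 and 388 (4 members) for the last. With cells thinned to 1500 UMIs, which lowers the counts, they were 544, 596, 501, 104, 341 and 67 (0 members). Leaving out each library in turn gave 1096 to 1216 (10 to 10 members), 1264 to 1475 (9), 1147 to 1336 (10), 65 to 313 (0 to 1), 697 to 966 (10) and 48 to 414 (0 to 3). Between surface and dura, 136 genes remained called without bone-associated library 1 and 65 without library 2, with 0 members in each. The difference between preparations gave 414 without cortical surface library 2, 81 (1 member) without library 3 and 48 (0 members) without library 4.

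Against microglia the MHC class II-high cells alone gave 5 members. Between surface and dura, surface libraries 3 and 4 alone against the dura gave 690 genes, and of the members Cbr2 was called higher in the dura (-1.32). MHC class II-low cells alone left a single dural library, so only the differences given above are reported for them. MHC class II-high cells alone gave 644 of 7381 genes, 479 of them higher in the dura, with 0 members higher at the surface and 9 higher in the dura, and turned the sign of Mrc1 (-1.43), Lyve1 (-1.64), Cd163 (-3.04), Pf4 (-2.28), F13a1 (-2.23), Stab1 (-1.84) and Folr2 (-4.93). DESeq2 gave Stab1 0.97 (adjusted p = 0.0249), under the fold limit. Libraries of the 2 preparations share replicate numbers only: their deviations correlated by 0.0967 and 0.0343 over 9247 genes. With the replicate number as a block 463 genes were called, Lyve1 at 3.11 and Stab1 at 1.20 (adjusted p = 1.5e-05). Between the states, clustering each library on its own gave 432 genes (3 members). The difference between preparations gave 82 genes (1 member) with DESeq2, 324 (1 member higher and 1 lower, F13a1 at -1.28) with at least 1000 genes per cell, 294 with 20% mitochondrial UMIs, 0 members with each library clustered on its own, and 28 genes (1 member) without the library block. That of Mrc1 was lost with each library clustered on its own (2.38), thinned (1.92) and without surface library 4 (2.75). That of Clec4n was lost there too (1.28, 1.08 and 2.14), with DESeq2 (2.10), at 1000 genes (0.85), without surface library 3 (2.33) and without the block (2.16).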

Other observations

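Outside the myeloid classes, members were also found at lower levels in vascular and mesenchymal cells. At the surface Pf4 and Mrc1 had means of 73.4 and 46.8 CPM in mesenchymal cells, 52.1 and 36.2 CPM in pericytes and 50.3 and 33.9 CPM in endothelial cells. T or NK cells, used as the background of free RNA, were lower there, at 6.10 and 7.96 CPM. The part of free RNA in these levels was not tested. Cbr2 in vascular smooth muscle cells had a mean of 28.5 CPM at the cortical surface and 34.3 CPM in the bone-associated libraries. At the surface it was as high in the neuron-like cells of a single library (29.0 CPM). At 1500 UMIs 42 of 46 neuron-like cells had none of the 10 genes and 2 had at least 5. A Cbr2 UMI was found in 24.5% and 21.0% of the smooth muscle cells (2.32% and 4.46% at 1500 UMIs; medians 12754 and 12027 UMIs per cell), against 1.29% and 0.330% of T or NK cells (0.370% and 0.165% thinned; medians 5931 and 6121.5 UMIs). Stab1 was at a mean of 76.8 CPM in the endothelial cells of the cortical surface and 131 CPM in those of the bone-associated libraries. Lyve1 in the bone-associated libraries was next highest in pericytes (10.1 CPM) and endothelial cells (9.79 CPM), with a UMI in 5.82% and 3.33% of cells (1.06% and 1.12% thinned; medians 8246 and 7493 UMIs) and in 0 of 606 T or NK cells, which allows a share of up to 0.495%.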
